A study of Homo sapiens with 8 samples.

Results

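Solute carriers (SLC proteins) are the membrane transporters that move sugars, amino acids, vitamins, metals, inorganic ions, nucleotides and drugs across the plasma membrane and the membranes of organelles. The small open reading frames (smORFs) described here were those whose annotated host gene carries an SLC symbol made of a family number, a letter and a member number, with antisense genes left out. They numbered 571 of the 24199 smORFs in the table, lay in 130 host genes of 43 SLC families, and each had 1 such host on its own strand. Almost all were outside the transporter's coding sequence: 514 were annotated as upstream ORFs (uORFs), 43 as downstream ORFs (dORFs), 12 as non-coding and 2 as intragenic. Against GENCODE, 478 lay wholly within a 5′ untranslated region of the host and 40 wholly within a 3′ untranslated region, and 0 overlapped a coding exon of it. What was counted was therefore reads over short frames outside the transporter's coding exons. Reads of ribosomes on adjoining or overlapping frames were not separated from them. Some frames are very short, such as IEC_16810 of SLC16A4 with 21 bases.

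In ribosome profiling, nuclease removes the RNA that no ribosome covers and the remaining footprints are sequenced. Counts over a smORF report ribosomes that cover it, whichever frame they read. A uORF lies ahead of the main coding sequence, and ribosomes that translate it can reach the main start codon less often. In the intestine, absorptive cells place uptake carriers on the brush border and exit carriers on the basolateral side, while dividing cells rely on amino acid and glucose carriers that feed growth. Levels of footprints on a uORF follow both the amount of the mRNA and its translation, and these cannot be told apart from the counts used here. Nor can fewer cells of a kind be told apart from less RNA per cell in bulk lysates.

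The cells were Caco-2, an established line from a human colon adenocarcinoma whose cells come to resemble absorptive enterocytes as they differentiate. There were 4 groups of 2 libraries: undifferentiated cells, differentiated cells with no further treatment (the control), differentiated cells given micelles without lipid, made of taurocholate, and differentiated cells given lipid micelles holding BSA, oleic acid and cholesterol. All 3 differentiated groups thus shared the differentiation step, and the control carried no micelle. For like-named Caco-2 cultures in its mass spectrometry, the paper took undifferentiated cells at an earlier day than differentiated ones. There the differentiated plates, those in medium alone included, also spent a night without serum. Whether the cells profiled here were handled so is not stated, and the part of culture age and serum was not tested. All libraries came from the same line, and the labels do not say whether replicates were separate cultures, so p-values measure the spread between these libraries only. Library totals over all smORFs ran from 506382 to 884711 counts. Of the enterocyte marker genes 8 had a tested smORF, of which 6 had smORFs called higher in the control than in undifferentiated cells (APOA4, APOB, APOC3, CDX2, FABP1 and HNF4A) and 1, APOA1, called lower. Of 9 proliferation genes tested, 8 were called lower and PCNA was not called. The summed level of the proliferation list was 8162.8 and 8453.9 CPM (counts divided by the TMM-scaled library total, on the usual CPM scale) in undifferentiated cells against 697.9 to 706.2 in the control. No smORF was listed for the 5 goblet or 4 enteroendocrine markers, and the fibroblast and immune lists summed to at most 18.9 CPM in any library.

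A few start regions are shown because the results turn on these smORFs and because they show what the frames look like. Each is read 5′ to 3′ from the hg38 genome, with 6 bases ahead of the frame and the frame's first codon in capitals, and the frame itself was identical to the deposited sequence. The 4 frames of the first set were higher after differentiation, and the 4 of the second were lower.
SLC26A3 IEC_19496: aactagAACttagaactttatcttgaaaat
SLC11A2 IEC_23866: acctatATGgaaaatacaagtgcactgtca
SLC16A4 IEC_16810: ttcacaATGcagcaaaatgaaatgcct
SLC6A4 IEC_13652: tggcagATGgacatcagtgtcatttac
SLC38A2 IEC_13497: ccttagAACgcctttccagtactgctagca
SLC38A1 IEC_21617: aggagaATGactccgattcgtgaccctcag
SLC7A11 IEC_14150: agcacgATGcatacacaggtgtttctgagt
SLC1A3 IEC_01024: ggctagCCTgcctgcttacgcgcgctgcgg
The frames of SLC26A3, SLC38A2 and SLC1A3 began not at ATG but directly after the bases of a stop codon (tag) in the genome. Where a frame opens an exon the bases ahead of it are intron, so such bases need not be a stop codon of the transcript. Starts of this kind were common: 375 of the 571 SLC-host smORFs began with another codon than ATG. Of these, 221 (58.9%) directly followed the bases of a stop codon in the genome, against 55.1% of the non-ATG smORFs of other genes. ATG began 196 SLC-host smORFs (34.3%), against 43.6% of all other smORFs. Among the ATG starts, a purine 3 bases ahead together with a G just after the codon, the strong form of the Kozak context, was present in 40 (20.4%), near the 20.8% of other ATG smORFs. The base ahead was again that of the genome. The SLC11A2 start above has a G after its ATG but a t 3 bases ahead, and the SLC38A1 start has a purine ahead and an a after.

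The SLC-host smORFs were short, with a median of 31 amino acids and a range of 6 to 133. Only 1 had a positive mean PhyloCSF score, a measure of protein-like conservation of the codons, against 1.8% of other smORFs. Their median RibORF score, which rates the 3-base periodicity of footprints from 0.7 upward in this table, was 0.874. They were packed closely: 432 (75.7%) shared exon sequence on the same strand with another smORF, and the 571 formed 220 groups of overlapping frames. A footprint in such a group is counted for each frame it lies on, so calls inside a group are not independent. SLC52A2 held 44 of the smORFs in 1 group, SLC38A1 26 and SLC1A3 and SLC37A4 17 each.

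Of the 571, 425 in 92 host genes passed the filter on low counts and were tested. None of the other 146 reached more than 17 counts in any library. The filter asks for enough counts in as few libraries as 1 group holds, so a smORF that is high in only 1 group can pass through that group alone, and the counts below describe those tested.

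The control was compared with undifferentiated cells to see which transporter genes carry more or fewer footprints on their smORFs after differentiation. A smORF was called where the Benjamini-Hochberg adjusted p of edgeR's quasi-likelihood test, over all 15182 smORFs tested, was under 0.05 and the log2 fold change was at least 1 in size. By this rule 56 SLC-host smORFs (13.2%) were higher and 150 (35.3%) lower in the control, where 17.7% of all smORFs were called higher and 15.6% lower (33.3% in all). Their median log2 fold change was -0.43, against 0.01 over all smORFs. Much of the surplus of lower calls came from few genes: SLC52A2, SLC38A1 and SLC1A3 held 85 of the 150 (56.7%), and without these hosts 56 of 340 were higher (16.5%) and 65 lower (19.1%). With 1 smORF kept per overlapping group, 30 of 146 (20.5%) were higher and 29 (19.9%) lower, against 19% and 15.7% of all such groups. Counted by host gene, 19 had only higher calls, 25 only lower calls, 1 had both, 47 had none, and 38 had no smORF tested. Of the 56 higher calls, 44 were on smORFs with under 10 counts in each undifferentiated library, and of the 150 lower calls 44 were on smORFs with under 10 counts in each control library.

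**Figure D1:**
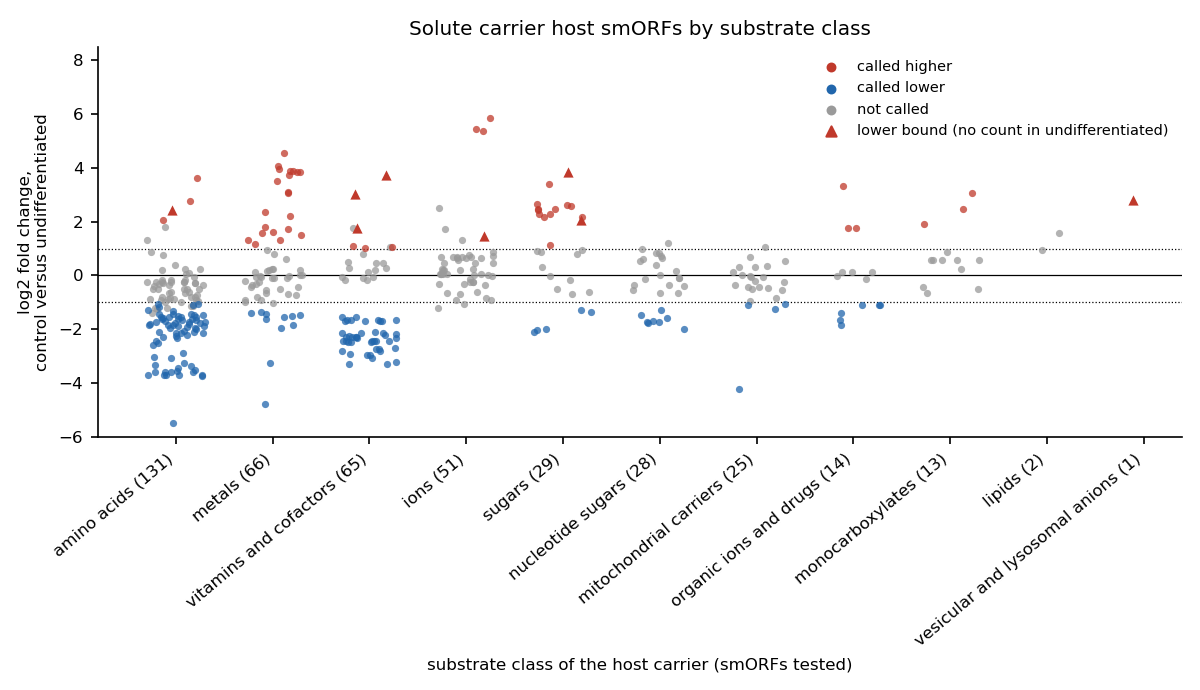
Log2 fold change of the 425 SLC-host smORFs tested, control versus undifferentiated, each point 1 smORF, grouped by the host carrier's substrate class with the number tested in brackets. Red points were called higher, blue lower and grey not called, triangles are lower bounds where undifferentiated cells had no count, and dotted lines mark a log2 fold change of 1 in either direction. Lower calls crowd in the amino acid and vitamin classes, while ion and monocarboxylate carriers have no lower call. The lower vitamin calls all lie in SLC52A2, and the 3 higher monocarboxylate calls are overlapping frames of SLC16A4.

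Substrate classes differed in how their calls were split, as the plot by substrate class shows. The amino acid class had 4 higher and 72 lower of 131 tested, with 2 host genes higher and 12 lower. By its family it includes the serotonin transporter SLC6A4, which holds 2 of the 4 higher calls. Carriers of sugars had 14 higher and 5 lower of 29, with 8 of the higher and all 5 lower ones in SLC37A4, and 6 higher and 1 lower of 14 with 1 smORF per overlapping group. Metal carriers had 21 higher and 11 lower of 66, in 4 and 6 host genes, where DESeq2 called 14 higher and 5 lower, in 4 and 3. Inorganic ion carriers had 4 higher and 0 lower of 51 (1 lower with the replicate block, 2 with no filter). Monocarboxylate carriers had 3 higher and 0 lower of 13. All 3 were overlapping frames of SLC16A4, and with 1 smORF per overlapping group 1 of 3 was higher. Mitochondrial carriers of the SLC25 family had 0 higher and 4 lower of 25 (1 higher with the replicate block, 2 with no filter, and 2 lower in DESeq2). Nucleotide sugar carriers of the SLC35 family had 0 higher and 8 lower of 28. Of these 8, 7 were overlapping frames of SLC35B3 and 1 was in SLC35B4. SLC35B3 was placed in this class by its family, although it carries the sulfate donor PAPS and not a nucleotide sugar. With 1 smORF per overlapping group, 2 of 15 in SLC35 were lower. Scaling by library totals, no filter or 10 counts in every library gave 1 higher in SLC35. The vitamin and cofactor class had 6 higher and 44 lower of 65, every lower one in SLC52A2. Of the 6 higher calls, 3 were in SLC46A3, a lysosomal carrier. With 1 smORF per overlapping group the amino acid class had 4 higher and 15 lower of 31 (median log2 fold change -1.11), while the vitamin class came to 1 higher and 1 lower of 11, and its median turned from -2.13 to 0.25. For sugars, where only smORFs with 10 counts in every library were kept, 3 were higher and 5 lower and the median turned from 0.96 to -0.53. Carriers of organic ions and drugs had 3 higher and 6 lower of 14, all 6 in SLC10A7, and DESeq2 called 1 higher and 1 lower. No smORF of the nucleoside or peptide carriers was tested.

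Levels were also summed over 1 smORF per overlapping group, with no filter and no test. The amino acid carriers summed to 5256.9 and 5127.1 CPM in undifferentiated cells and to 2336.8 to 2690.4 CPM in the 6 differentiated libraries. Inorganic ion carriers summed to 678.9 and 581.1 CPM in undifferentiated cells and to 1562.0 to 2007.3 CPM after differentiation, but this was the level of SLC26A3, which alone gave 31.5 and 12.4 CPM against 899.3 to 1277.8. Without SLC26A3 the class had 647.4 and 568.6 CPM against 613.8 to 808.8, and the libraries overlapped. Those of the amino acid class did not overlap, but no host was left out of that class. Its SLC38 family alone summed to 2824.1 and 2441.8 CPM in undifferentiated cells and to 891.9 to 1098.6 CPM in the differentiated libraries. Metal carriers overlapped, at 2572.7 and 2765.3 CPM in undifferentiated cells and 2546.6 to 2758.3 CPM after differentiation.

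SLC26A3 is the chloride-bicarbonate exchanger of the colonic brush border, and 3 of its 3 smORFs were called higher. Its uORF IEC_19496 (chr7:107794591-107803174, minus strand, 2 exons, wholly 5′ untranslated) had 29.9 and 12.4 CPM in the undifferentiated libraries, 842.6 and 1052.2 in the control, 984.4 and 1126.8 with micelles without lipid, and 1203.5 and 921.0 with lipid micelles. Every differentiated library was far above both undifferentiated ones. The log2 fold change, control versus undifferentiated, was 5.45 ± 0.36 (SE, adjusted p = 2.35e-08, edgeR), the smallest adjusted p among the SLC-host smORFs. The overlapping ATG frame IEC_15717 of 19 amino acids rose by 5.85 ± 0.38 on the log2 scale, from 9 and 3 counts to 272 and 490, and the frame IEC_15716 outside that group had 1 and 0 counts against 29 and 24.

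SLC2A5 encodes the fructose carrier GLUT5, and its dORF IEC_17262 (chr1:9037508-9037585, minus strand, wholly 3′ untranslated) had no count in either undifferentiated library. It had 52.8 and 92.3 CPM in the control, at least 14.4-fold higher than the level that 3 counts per undifferentiated library would give (adjusted p = 1.32e-05, edgeR), and 32.7 to 74.5 CPM in the 4 micelle libraries. SLC2A2 encodes GLUT2, the glucose carrier of the basolateral side, and its uORF IEC_14992 had 2 and 2 counts in undifferentiated cells against 13 and 36 in the control, a log2 fold change of 3.41 ± 0.58 (adjusted p = 0.000251). By contrast the uORF IEC_12950 of SLC2A3, the high-affinity glucose carrier GLUT3, went from 1076.5 and 874.4 CPM to 506.3 and 701.0, a log2 fold change of -0.69 ± 0.26 that passed the adjusted p (0.0445) but not the fold threshold. Averaged over all 8 libraries and per 100 bases of frame, this SLC2A3 smORF had 1391.1 CPM and SLC26A3 IEC_19496 1286.0, the highest levels among the tested SLC-host smORFs, although the average pools groups that differ. SLC5A3, a carrier of myo-inositol, had a uORF at 34.6 and 28.4 CPM in undifferentiated cells and 136.8 and 150.9 in the control (log2 fold change 2.18 ± 0.30, adjusted p = 2.96e-05).

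**Figure D2:**
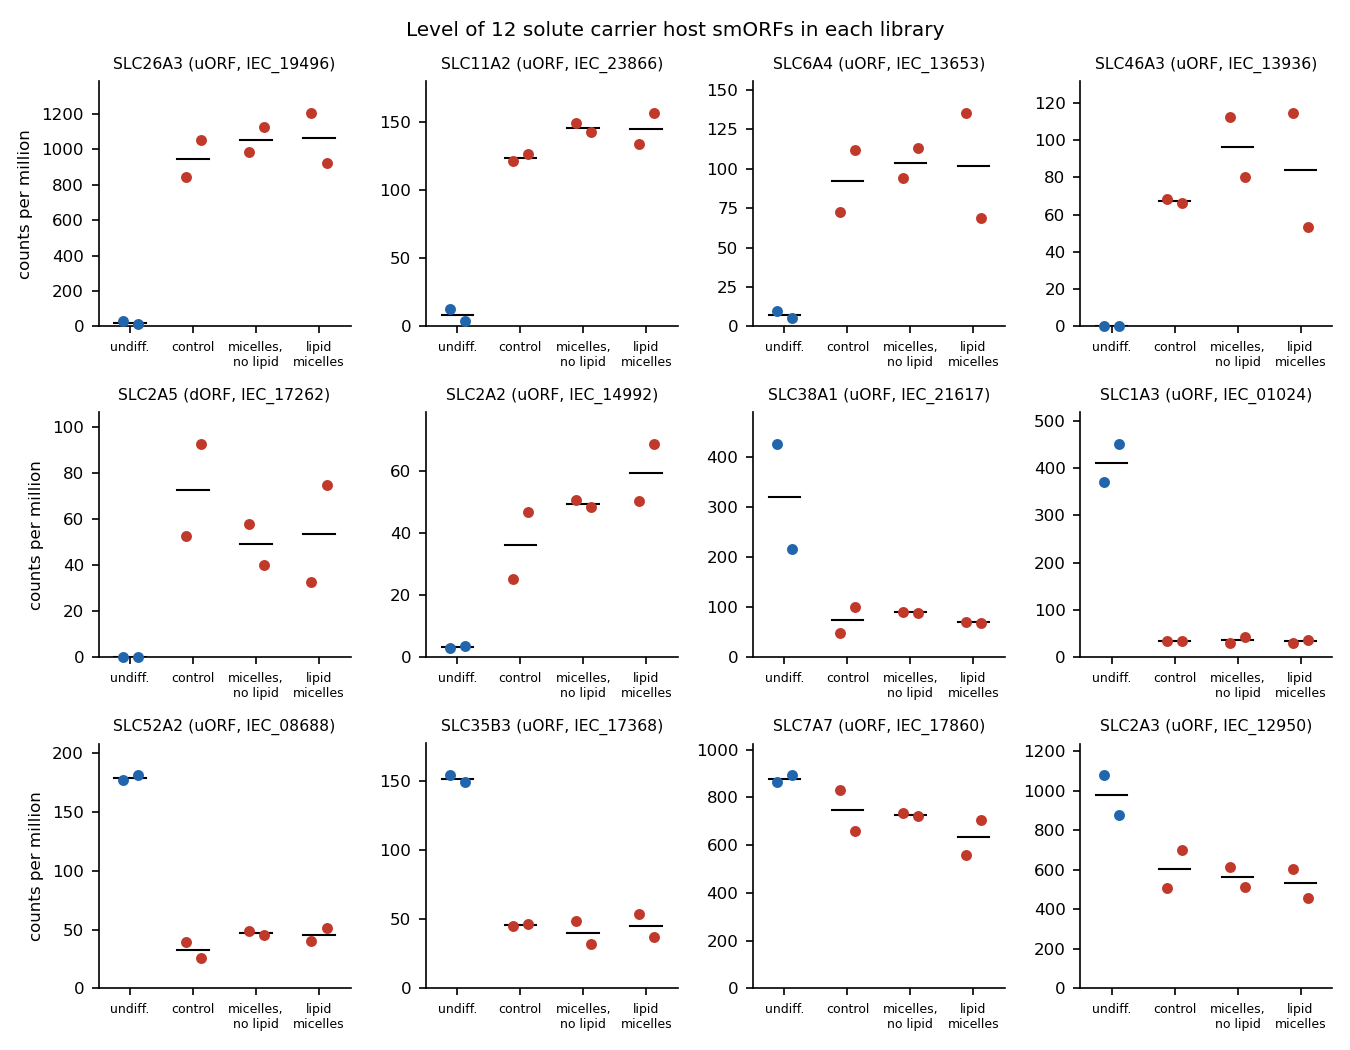
Level in CPM of 12 SLC-host smORFs in each of the 8 libraries, undifferentiated in blue and differentiated in red, with a line at each group's mean and a separate axis from 0 in each panel. The first 6 panels were called higher in the control than in undifferentiated cells, the next 4 lower, and those of SLC7A7 and SLC2A3 were not called. In each of the 10 called panels the 6 differentiated libraries lie on 1 side of both undifferentiated libraries.

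Both SLC11A2 and SLC40A1 carry iron, and all tested smORFs of each were higher. SLC11A2 (DMT1) brings iron in at the brush border and SLC40A1 (ferroportin) lets it out at the basolateral side. All 8 tested smORFs of SLC11A2 were called higher, with log2 fold changes of 3.11 to 4.56, and they fell into 4 separate groups of frames, 1 of them a dORF. The uORF IEC_23866 (chr12:51028404-51028709, minus strand, 69 amino acids) had 12.6 and 3.55 CPM in undifferentiated cells, 121.2 and 126.2 in the control and 133.7 to 156.0 in the micelle libraries, a log2 fold change of 3.87 ± 0.41 (adjusted p = 2e-06). All 6 tested smORFs of SLC40A1 were called higher too, from 1.33 to 3.97, in 5 separate groups with 2 dORFs among them. The most abundant, IEC_13596, was the weakest, with 36 and 18 counts against 52 and 94, and its call was lost without undifferentiated replicate 2 (log2 fold change 1.01, adjusted p = 0.0732).

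Of the zinc carrier families, SLC30 (exporters) had 2 higher and 0 lower of 11 tested smORFs, in 1 of 4 hosts, and SLC39 (importers, some of which also take iron) 5 higher and 6 lower of 31, in 1 and 4 of 7 hosts. SLC30A5, SLC30A7, SLC30A9, SLC39A1 and SLC39A9 had smORFs tested and none called. The uORF IEC_16604 of SLC30A1, the zinc exporter of the plasma membrane, rose from 50.3 and 62.2 CPM to 185.7 and 157.4 (log2 fold change 1.60 ± 0.29, adjusted p = 0.000385). SLC39A5, a basolateral zinc importer of enterocytes, had 5 of 8 smORFs called higher, led by the 15-residue uORF IEC_06130 with 163.4 and 284.3 CPM against 535.6 and 473.4 (log2 fold change 1.17 ± 0.29). In SLC39A7, which releases zinc from the endoplasmic reticulum, 3 of 5 were lower. Its uORF IEC_04066 had 792.1 and 876.1 CPM in undifferentiated cells and 318.6 and 223.7 in the control (log2 fold change -1.63 ± 0.30, adjusted p = 0.000542). Individual smORFs (1 each) of SLC39A3, SLC39A10 and SLC39A14 were lower as well, by -1.46 to -1.54. The SLC39A3 smORF also lies in an exon of ENSG00000267001 on the same strand, so its host is uncertain.

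Several hosts had few or no counts in undifferentiated cells. SLC46A3, a lysosomal carrier, had 0 counts in both undifferentiated libraries over all 3 of its overlapping smORFs, and its uORF IEC_13936 reached 68.4 and 66.3 CPM in the control, at least 13.4-fold higher by the floor of 3 counts per library. SLC6A4 is the serotonin transporter, and its 12-residue uORF IEC_13653 had 9.43 and 5.33 CPM against 72.3 and 111.9 (log2 fold change 3.61 ± 0.49, adjusted p = 2.91e-05). The separate 7-residue ATG frame IEC_13652 of SLC6A4, shown above, had no count in undifferentiated cells and 13 and 22 in the control, at least 5.38-fold higher. SLC17A4, of the organic anion and phosphate family, had 0 and 0 counts against 12 and 36 on its intragenic smORF (at least 7.0-fold higher). SLC5A12, which carries lactate, was counted with the sugar carriers because its family is that of the glucose cotransporters. It had 0 and 0 counts against 10 and 17 (at least 4.15-fold higher). For SLC26A2, a sulfate carrier, the uORF IEC_06011 had 0 and 0 against 5 and 14 (at least 2.79-fold higher), while its other uORF IEC_01406 had 7 and 11 against 7 and 9.

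Smaller sets of rises were seen among the remaining classes. The 7-residue frame of SLC16A4, a member of the monocarboxylate family, rose from 7.86 and 14.2 CPM to 56.7 and 124.9 (log2 fold change 3.07 ± 0.46, adjusted p = 7.67e-05). SLC22A4, an organic cation carrier, had 2 and 2 counts against 16 and 29 (3.31 ± 0.61), and the uORF of SLC36A1, a proton-coupled amino acid carrier, 12 and 22 against 65 and 88 (2.07 ± 0.34, adjusted p = 0.000165). SLC36A1 and SLC6A4 were the 2 hosts of the amino acid class with higher calls, against 12 with lower ones. SLC6A4 was placed in that class by its family, although it carries serotonin.

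Amino acid carriers linked to growth were lower in the control. A list of 13 such carriers, those for glutamine, large neutral and cationic amino acids, cystine, glucose, lactate, folate and nucleosides, had 7 host genes with a tested smORF, and each of the 7 had at least 1 call lower and none higher. They were SLC1A5, SLC38A1, SLC38A2, SLC3A2, SLC43A1, SLC7A1 and SLC7A11, all of them amino acid carriers, and 39 of their 44 tested smORFs were lower (median log2 fold change -1.82). With RLE size factors or library totals in place of the main scaling, 39 were lower and 0 higher in each, and DESeq2 called 34 lower, in 6 hosts. With 1 smORF per overlapping group, 9 of 12 were lower. Of a list of 9 carriers tied to the amino acid stress factor ATF4, 5 hosts had tested smORFs, all 5 of them also on the growth list, and 14 of their 18 smORFs were lower. The proliferation markers fell in the same comparison, as given above, and their part in these falls was not tested.

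SLC38A2 (SNAT2) imports glutamine and other small neutral amino acids. Its uORF IEC_13497 (chr12:46372529-46372747, minus strand) had 1775.9 and 1599.4 CPM in undifferentiated cells, 608.0 and 593.1 in the control, 681.7 and 550.3 with micelles without lipid and 622.5 and 562.4 with lipid micelles. Both undifferentiated libraries were above every differentiated one, and the log2 fold change was -1.49 ± 0.24 (adjusted p = 0.000136). Its neighbour on chromosome 12, SLC38A1 (SNAT1), had all 24 tested smORFs lower, by -1.47 to -3.02, in 1 overlapping group. The ATG frame IEC_21617 had 424.3 and 215.0 CPM against 48.9 and 100.1 (log2 fold change -2.07 ± 0.35, adjusted p = 0.000217), with both undifferentiated libraries above every differentiated one.

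SLC3A2 is the heavy chain of several heteromeric exchangers, and all 5 of its smORFs were lower, IEC_04243 from 62 and 53 counts to 15 and 16 (log2 fold change -1.96 ± 0.39, adjusted p = 0.000932). SLC7A11, the cystine light chain that pairs with it, had 1 smORF tested, with 13 and 14 counts against 0 and 5 (log2 fold change -2.51 ± 0.84, adjusted p = 0.026). This call was lost in DESeq2 (adjusted p = 0.0829) and without undifferentiated replicate 1 (0.0991), undifferentiated replicate 2 (0.15) or control replicate 1 (0.179). SLC7A1, the arginine and lysine carrier CAT1, had 3 of 4 smORFs lower, its 110-residue ATG frame from 29 and 24 counts to 6 and 7 (-2.09 ± 0.47, adjusted p = 0.00222). SLC43A1, a carrier of large neutral amino acids, fell from 35 and 40 counts to 5 and 16 (-1.96 ± 0.43). In SLC1A5, the glutamine carrier ASCT2, the frame IEC_21493 fell by 2.10 ± 0.35 on the log2 scale (adjusted p = 0.000189), while the more abundant IEC_21492, in another group of frames, had 232.6 and 255.9 CPM against 140.8 and 131.4, a log2 fold change of -0.85 ± 0.26 short of the fold threshold. All 3 smORFs of SLC1A5 overlap an exon of ENSG00000275719 on the opposite strand.

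SLC1A3 is the glutamate and aspartate carrier GLAST, best known from glia. All 17 of its smORFs were called lower, 16 of them uORFs in 1 overlapping group with log2 fold changes of -3.08 to -3.73. The frame IEC_01024 (chr5:36606633-36608417, plus strand) had 369.3 and 449.6 CPM in undifferentiated cells and 29.7 to 42.9 in the 6 differentiated libraries (control versus undifferentiated -3.56 ± 0.30, adjusted p = 1.87e-07). Its dORF IEC_12333, which shares no sequence with them, had 24 and 28 counts against 1 and 0, a ratio of 55.5 with a 95% counting interval of 9.54 to 2235. The vitamin B2 carrier SLC52A2 held the largest block, 44 uORFs on chromosome 8 in 1 overlapping group, each called lower by -1.54 to -3.30. Its most abundant frame, IEC_08688, had 177.6 and 181.3 CPM in undifferentiated cells, 39.1 and 26.0 in the control and 40.1 to 51.2 in the micelle libraries (-2.49 ± 0.31, adjusted p = 1.21e-05). Of these 44, 43 overlapped an exon of FBXL6 on the opposite strand, and whether counting used strand is not given in the sources used here. In the whole table, 4 pairs of single-exon smORFs on opposite strands shared over 80% of both frames, and their totals differed by 1.3 to 13.1 times. The unshared parts can also hold reads, so these pairs do not settle whether counting used strand.

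**Figure D3:**
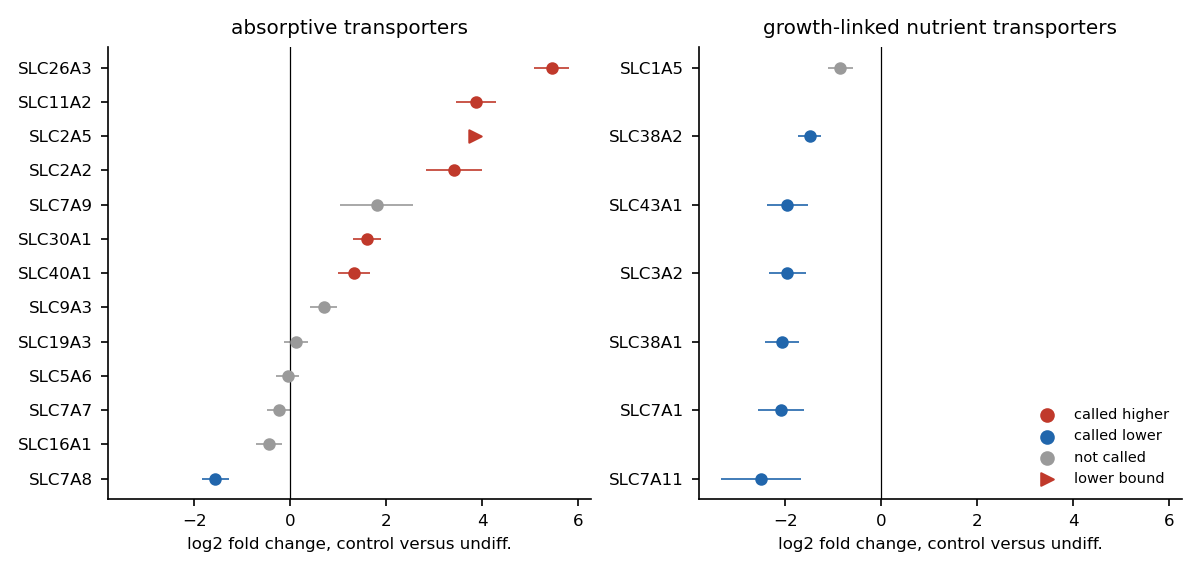
Log2 fold change, control versus undifferentiated, of the most abundant tested smORF of each host in 2 lists of carriers, with bars for the standard error. Red points were called higher, blue lower and grey not called, and the arrow of SLC2A5 is a lower bound. The 7 growth-linked hosts all lie below 0, while the 13 absorptive hosts run from -1.56 in SLC7A8 to 5.45 in SLC26A3.

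A list of 26 carriers of intestinal absorption gave a mixed result. It had 13 hosts with a tested smORF, of which 7 had higher calls (SLC11A2, SLC26A3, SLC2A2, SLC2A5, SLC30A1, SLC40A1 and SLC5A6), 1 had lower calls (SLC7A8) and 5 had none. Of its 70 tested smORFs, 24 were higher and 9 lower. DESeq2 called 18 higher and 5 lower, with 6 hosts higher, and with 10 counts in every library 6 were higher and 1 lower of 36, with 3 hosts higher. In SLC5A6, a biotin and pantothenate carrier, the 3 calls were between 1.01 and 1.09, and the most abundant frame had a log2 fold change of -0.05 ± 0.24. SLC7A8 (LAT2) takes neutral amino acids out at the basolateral side, and 9 of its 11 smORFs were lower, IEC_15067 from 179.2 and 154.6 CPM to 60.6 and 53.3 (-1.56 ± 0.29, adjusted p = 0.000477). SLC7A7 (y+LAT1), which shares that membrane, had 2 of the 5 SLC-host smORFs with the highest mean CPM over all 8 libraries. Its uORF IEC_17860 had 864.4 and 892.1 CPM in undifferentiated cells against 830.8 and 660.7 in the control. Its log2 fold change was -0.24 ± 0.24 (adjusted p = 0.463), and none of its 9 tested smORFs was called. The same held for the 8 of SLC16A1 (lactate and butyrate, IEC_19593 at -0.45 ± 0.27), the 1 of SLC19A3 (thiamine, 0.12 ± 0.25) and the 1 of SLC7A9 (cystine and dibasic amino acids, 1.80 ± 0.76, adjusted p = 0.0705). SLC9A3, the sodium-proton exchanger of the brush border, had 11 dORFs and none called, IEC_15825 with 80.2 and 81.7 CPM against 136.8 and 126.2 (0.70 ± 0.28, adjusted p = 0.0599). All 11 also lie in exons of PP7080 on the same strand, so their host is uncertain.

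SLC25A3, the mitochondrial phosphate carrier, had 2 separate uORFs, both lower but by different amounts: IEC_09480 had 364.6 and 435.4 CPM against 191.6 and 184.7 (-1.09 ± 0.24, adjusted p = 0.00211), and IEC_00101 had 26 and 31 counts against 2 and 1, a ratio of 20.3 with a 95% counting interval of 6.6 to 101. SLC35B3, which brings the sulfate donor PAPS into the Golgi, had 7 of 7 smORFs lower in 1 group, IEC_17368 from 154.0 and 149.3 CPM to 45.0 and 46.8 (-1.72 ± 0.31, adjusted p = 0.000394). SLC10A7 had 6 of 6 lower in 1 group by -1.12 to -1.85, and DESeq2 called 1 of its class lower instead of these 6. The call of IEC_20636 was also lost without undifferentiated replicate 1 and without control replicate 2. SLC41A2, a magnesium carrier, had 2 overlapping frames lower, IEC_13552 with 29 and 9 counts against 0 and 4, a call that was lost without undifferentiated replicate 1 (adjusted p = 0.241), without control replicate 1 (0.077) and in DESeq2 (0.288).

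Frames of the same host did not always move together. SLC37A4, the glucose-6-phosphate carrier of the endoplasmic reticulum, was the only host with calls in both directions: of its 15 tested smORFs, 5 of 7 uORFs were lower and all 8 dORFs were higher. The uORF IEC_21020 (chr11:119029533-119029589, minus strand) had 183.9 and 168.8 CPM in undifferentiated cells, 46.9 and 36.4 in the control, and 29.0 to 43.1 in the micelle libraries (-2.10 ± 0.30, adjusted p = 4.79e-05). The dORF IEC_15409 (chr11:119024353-119024526, minus strand) went from 6.29 and 12.4 CPM to 64.5 and 41.6, with 53.6 to 94.3 in the micelle libraries (2.47 ± 0.48, adjusted p = 0.000781). In neither frame did the differentiated libraries overlap the undifferentiated ones. The uORFs formed 1 overlapping group and the dORFs another, so this amounts to 2 separate sets of reads within 6.2 kb, neither of them overlapping an annotated exon of another gene. In SLC31A1, the copper importer, 3 of 6 uORFs were lower by -1.37 to -1.83 and the other 3 had log2 fold changes of 0.02 to 0.15. Over all hosts, 13 of 30 tested dORFs were higher and 2 lower, against 42 higher and 148 lower of 388 uORFs, and 8 of the 13 were those of SLC37A4.

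**Figure D4:**
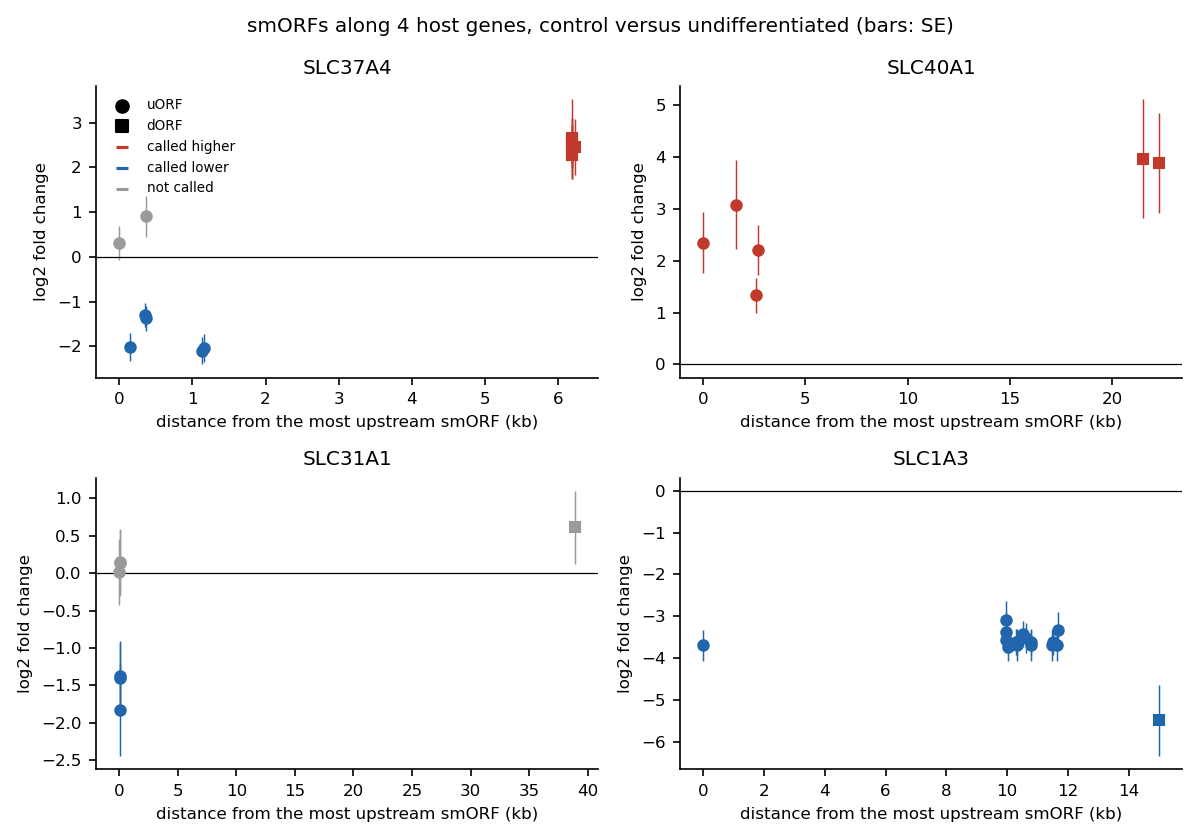
Log2 fold change, control versus undifferentiated, of each tested smORF along the 4 hosts with at least 5 tested smORFs and the widest range, against distance from the most upstream smORF in kb along the gene. Circles are uORFs and squares dORFs, bars are standard errors, red was called higher, blue lower and grey not called. SLC37A4 has its lower calls upstream and its higher calls about 6.2 kb downstream, while SLC40A1 is above 0 and SLC1A3 below 0 throughout.

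The composition of the called smORFs is given as a description only. Overlapping frames were each counted, so a few hosts weigh heavily in these shares. SLC52A2, SLC38A1 and SLC1A3 held 85 of the 150 lower ones. The 56 higher ones had a median GC content of 51.7%, the 150 lower ones 57.4% and the 219 not called 61.6%, with 58.3% over all SLC-host smORFs. A RepeatMasker hit was listed for 14 of the higher (25.0%), 72 of the lower (48.0%) and 86 of those not called (39.3%). ATG began 19 of the higher and 35 of the lower. None of the 19 higher ATG frames had the strong start context, against 7 of the 35 lower ones and 23 of the 80 not called.

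Genes of the ABC family, and SLC carriers under other symbols, were counted beside the SLC hosts. Of the 23 tested smORFs in 10 genes of the ABC family, not all of which are transporters, 6 were higher and 2 lower. ABCA5 had higher calls alone, ABCE1 lower calls alone, 1 gene had both and 7 had none. Carriers of the SLC superfamily known by other symbols had 12 higher and 8 lower of 36 smORFs in 9 genes. All 12 higher calls were in 1 gene, SLCO2B1, the lower ones were in CLN3, TMEM165 and UCP2, and 5 genes had none. These counts stand against 17.7% higher and 15.6% lower over all smORFs.

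The micelle groups were compared with the control, and with each other, to see whether bile salt micelles or their lipid load changed these smORFs. With micelles without lipid against the control, 0 of 425 SLC-host smORFs were called, as 0% of all 15182 were. With lipid micelles against the control the count was 0 and the background 0%, and with lipid micelles against micelles without lipid again 0 and 0%. DESeq2 also called 0 in each. At an unadjusted p under 0.05, edgeR had 23 (5.41%) in the first comparison, 19 (4.47%) in the second and 3 (0.706%) in the third, where all smORFs had 4.08%, 4.66% and 4.11%. The smallest adjusted p was 0.858, 0.957 and 0.999 in turn. Median log2 fold changes were 0.07, 0.02 and -0.05.

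The SLC-host smORFs nearest to a call with micelles without lipid were in SLC1A5, SLC26A11 and SLC41A1. The SLC1A5 frame IEC_21493 had 21.5 and 23.4 CPM in the control and 45.3 and 65.0 with micelles without lipid, a log2 fold change of 1.30 ± 0.36 (adjusted p = 0.858, edgeR). This frame was also first in the comparison of the 2 micelle groups, with 32.7 and 30.3 CPM under lipid micelles (-0.82 ± 0.34, adjusted p = 0.999). SLC26A11, an anion carrier, had 13.7 and 11.7 CPM against 29.0 and 35.9 (1.37 ± 0.44), and SLC41A1, a magnesium carrier, 23.5 and 14.3 against 3.63 and 5.53 (-1.92 ± 0.63), and neither passed. With lipid micelles the 3 nearest were overlapping frames of SLC52A2 that count nearly the same reads: IEC_08680 had 15.6 and 13.0 CPM in the control and 31.2 and 38.4 with lipid micelles (1.30 ± 0.39, adjusted p = 0.957). Between the micelle groups, a 7-residue frame of SLC43A2 had 36.3 and 29.0 CPM without lipid and 13.4 and 18.6 with it (-0.99 ± 0.43), and IEC_21270 of SLC43A1 12.7 and 20.7 against 5.94 and 6.99 (-1.36 ± 0.61). In each of these the 2 groups compared did not overlap, but neither did they for 135, 166 and 134 of the 425 in the 3 comparisons. By arrangement alone, 2 libraries lie apart from 2 others with probability 0.333, so this separation marks none of these smORFs out. The share over all smORFs is not given here.

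**Figure D5:**
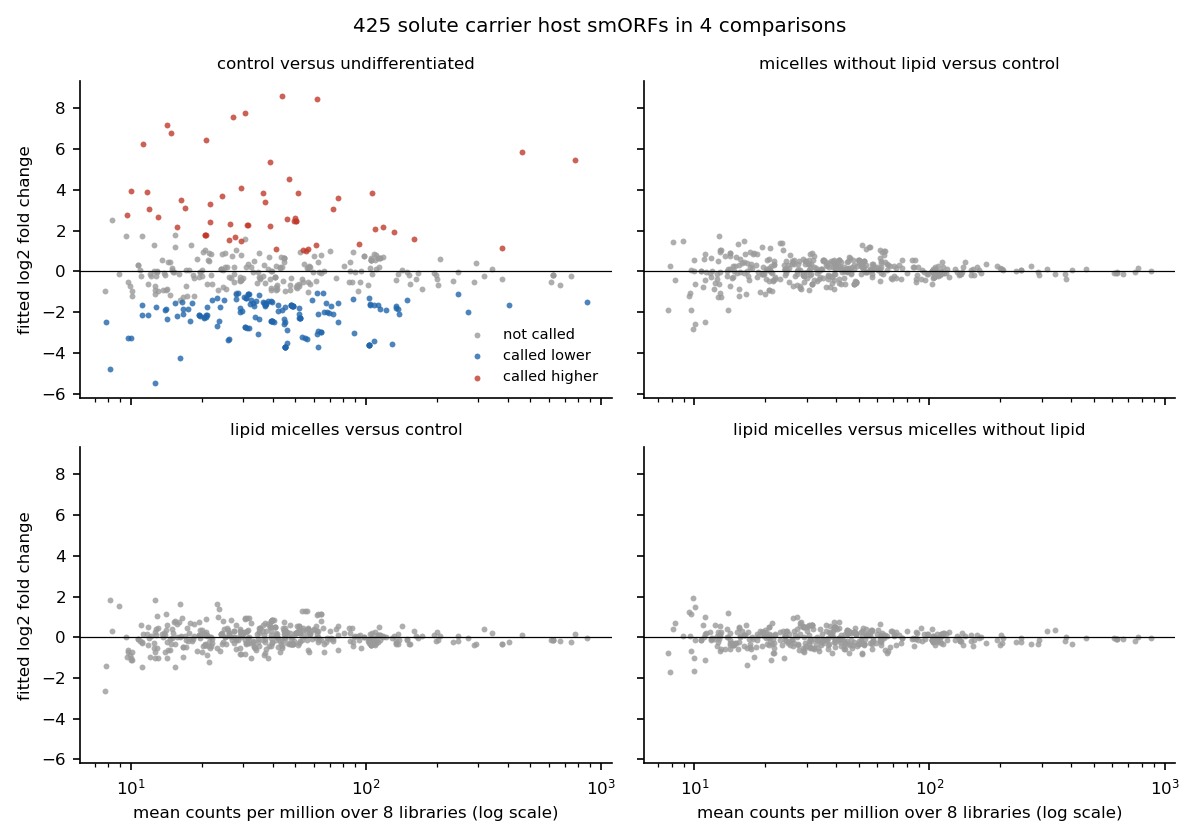
Fitted log2 fold change of the 425 SLC-host smORFs tested against their mean CPM over the 8 libraries on a log scale, in each of the 4 comparisons. Red was called higher, blue lower and grey not called, and rises from no count in undifferentiated cells appear at their fitted value, which is not a measured fold. Calls occur in the first panel alone, and in the micelle panels the points close in on 0 as the level rises.

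Few carriers of lipids could be compared. The fatty acid transport proteins SLC27A4 and SLC27A6 had smORFs listed but none passed the filter, and SLC44A1, a choline carrier, had 2 tested, with log2 fold changes of 0.96 and 1.57 in the control against undifferentiated cells and neither called. A level of 3 counts corresponded to 3.49 to 5.86 CPM by library, so changes in smORFs near that level were not detectable at this depth.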

How the data were processed

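Ribosome profiling libraries of Caco-2 cells were aligned by the authors to hg38 with STAR (version 2.7.11a in the submitters' processing notes, which also name GRCh38.p13), transcripts were assembled with StringTie 2.2.1, and frames of at most 150 amino acids with a RibORF 0.1 score of at least 0.7 outside known coding regions were kept. The deposited values are whole-number counts of reads per smORF, for which the submitters' notes name HOMER without its settings, with the RibORF and PhyloCSF scores in the deposited annotation. Depth was 506382 to 884711 counts per library, and intervals cover counting error only. Counts were joined to the annotation by smORF identifier, and 0 per-sample columns were left unused. Columns with the smORFs' sequences and coordinates were compared with hg38, which equalled the deposited sequence in 570 of 571.

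All 24199 smORFs entered edgeR 4.0.16 in R 4.3.3: filterByExpr, TMM scaling, and the quasi-likelihood test with a group term over all 8 libraries, Benjamini-Hochberg adjusted over the 15182 tested. CPM used the TMM-scaled totals. The fit was tested on simulated counts with known changes. A call needed an adjusted p under 0.05 and a log2 fold change of 1 or more in size, as in the RNA-seq comparisons of the study. A fold against a group with no count used a floor of 3 counts per library, and groups with 1 to 3 counts got an exact 95% interval. Overlap groups joined smORFs sharing exon bases on a strand. Hosts were classed by SLC family, except that some, such as SLC5A6 and SLC43A3, were classed by their own substrate. Named in the text were the largest called rise and fall per class, the 10 hosts with the largest rises and falls, hosts of 3 lists (absorptive, growth-linked, ATF4-linked), the 3 smORFs with the smallest p in each micelle comparison, and the 5 with the highest level. Other smORFs of those hosts, and SLC36A1, SLC39A3, SLC39A5, SLC39A7, SLC39A10, SLC39A14, SLC5A3, SLC27A6, SLC31A1, SLC44A1 and the within-host results, were chosen after their values were seen. A list of transport partners is not reported here. The members and lists were chosen with earlier results of these data known.

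Alternatives were the replicate number as a block, DESeq2 1.42.0, other scalings and filters, 1 smORF per overlap group, the 2 compared groups alone, and leaving out each library.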

Additional observations from a re-analysis of the deposited data

How the results depend on the processing

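Of the SLC-host smORFs, 206 were called in the control against undifferentiated cells. Asking for 10 counts in every library left 78 calls of 215 (14 higher, 64 lower), since fewer smORFs were tested and those near 0 in a group were dropped. With 1 smORF per overlapping group there were 59 of 146 (30 higher, 29 lower), where 19% of all such groups were called higher and 15.7% lower. The median log2 fold change of the SLC-host smORFs went from -0.43 to -0.04. Leaving out 1 library at a time gave 167 to 224 calls. The other alternatives gave 159 (DESeq2) to 235 (no filter), and DESeq2 called 40 higher and 119 lower. With the replicate number as a block 212 were called. Apart from 1 smORF per overlapping group, shares over all smORFs are not given for these settings. The counts therefore do not show whether the surplus of lower calls over all smORFs holds under them. Over all smORFs tested, deviations of same-numbered libraries from their group means correlated at 0.109 to 0.198 among the differentiated groups and at -0.065 to 0.021 with undifferentiated cells. Over the SLC-host smORFs the ranges were -0.021 to 0.202 and -0.081 to 0.05. These values do not settle whether same-numbered libraries were handled together. The micelle comparisons had 0 calls under every alternative run, the block included. Of 36 called smORFs among the 49 named, 31 stayed called under each alternative that could be fitted, and none of the 36 changed direction. Among those not called, the log2 fold change crossed 0 for IEC_14877 of SLC5A6 (-0.19 to 0.12), IEC_16612 of SLC41A1 (-0.50 to 0.20), IEC_18161 of SLC19A3 (-0.08 to 0.38) and IEC_21790 of SLC7A7 (-0.29 to 0.03). IEC_18384 of SLC41A2 lost its call without undifferentiated replicate 1. SLC7A9 IEC_22508 was called in 5 alternatives, with a log2 fold change of 1.80 under the block, and IEC_21270 of SLC43A1 was called lower under the block (-1.31). Counts near 3 per library limit what could be detected.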
